A study of Mus musculus with 2 samples.

Results

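The cells described here were rod photoreceptors of the mouse retina, taken as the barcodes of a droplet library that passed the quality limits stated by the study and carried rod messages. A barcode was counted as a rod when it held 200 to 2500 detected genes, had at most 18% of its counts in mitochondrial genes, had at least 1% in Sag, Pdc, Gngt1 and Gnat1, and had under 0.5% in the cone genes Arr3, Opn1sw, Opn1mw, Gnat2 and Pde6h. Of 834 barcodes, 373 met these limits (44.7%, exact 95% interval 41.3% to 48.2%), and they held 1057535 of 2487110 unique molecular identifiers (UMIs), the counted tags of single RNA molecules. The study electroporated the retinas of wild-type pups at P0 with the plasmid pCIG2, which carries an EGFP reporter, either alone as control or with lamin A or Lbr, and sorted viable EGFP+ cells after 8 weeks. The 3 sorts were marked with MULTI-seq lipid oligonucleotides and pooled into 1 Chromium run, so the whole series was 1 expression library with its tag library and had no replicates. All tags were pooled here, because no label or file names the condition of a tag. The plasmid is not specific to rods, it reaches a part of the cells of a retina, and other retinal cell types were present among the sorted cells.

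Rods are the dim-light sensors of the retina. In their outer segment, a stack of membrane discs behind a connecting cilium, photon capture switches on the G protein transducin, transducin releases the brake on a phosphodiesterase, cyclic GMP falls and a cation channel closes, after which arrestin, a kinase and calcium sensors restore the dark state. The identity of the cell rests on the transcription factors Crx, Nrl and Nr2e3, and its synapse is a ribbon that releases glutamate in darkness. Rods of nocturnal mammals keep their heterochromatin in the centre of the nucleus and lack lamin A and Lbr, the envelope proteins that the study misexpressed in them.

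The 461 other barcodes fell into 3 groups by the same limits. Rod genes reached 1% in 300 barcodes that failed the quality limits, and 273 of these were over the mitochondrial limit, 250 of them failing on that alone, while 43 had under 200 genes and 7 had over 2500. Another 150 barcodes were under both gene limits and are called non-rod barcodes, of which 32 passed the quality limits. The remaining 11 were over the cone limit. Rods had a median of 2775 UMIs (512 to 12461), 579 genes (200 to 2488) and 12.6% mitochondrial UMIs (0% to 17.99%). The rod-gene barcodes outside the limits had medians of 2019.5 UMIs, 396.5 genes and 22.3%, and non-rod barcodes had 1528.5 UMIs, 221 genes and 37.2%. A single barcode outside the limits stood apart with 85822 UMIs and 7614 genes and held 10.1% of the UMIs of its group.

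The 4 rod genes and the 5 cone genes chose the cells, so their values describe the choice and test nothing. Rod genes took a median of 4.69% of the UMIs of a rod (1.22% to 9.19%). Among barcodes inside the quality limits the 3 rods nearest the limit held 1.22%, 1.45% and 1.49%, and the 3 nearest barcodes below it held 0.449%, 0.321% and 0.295%. Over all 834 barcodes the values on either side of the limit were 0.882% and 1.08%, and 5 rods were under 2%. The cone limit was as clear, with 368 rods free of any cone-gene UMI, a highest rod at 0.161% and a nearest excluded barcode at 0.830%. The mitochondrial limit cut through a continuous range instead, with 17.99% just inside, 18.01% just outside, 35 rods between 17% and 18% and 30 rod-gene barcodes between 18% and 19%. At the gene limits the nearest values were 200 and 199 genes at the low end and 2488 and 2554 at the high end.

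**Figure D1:**
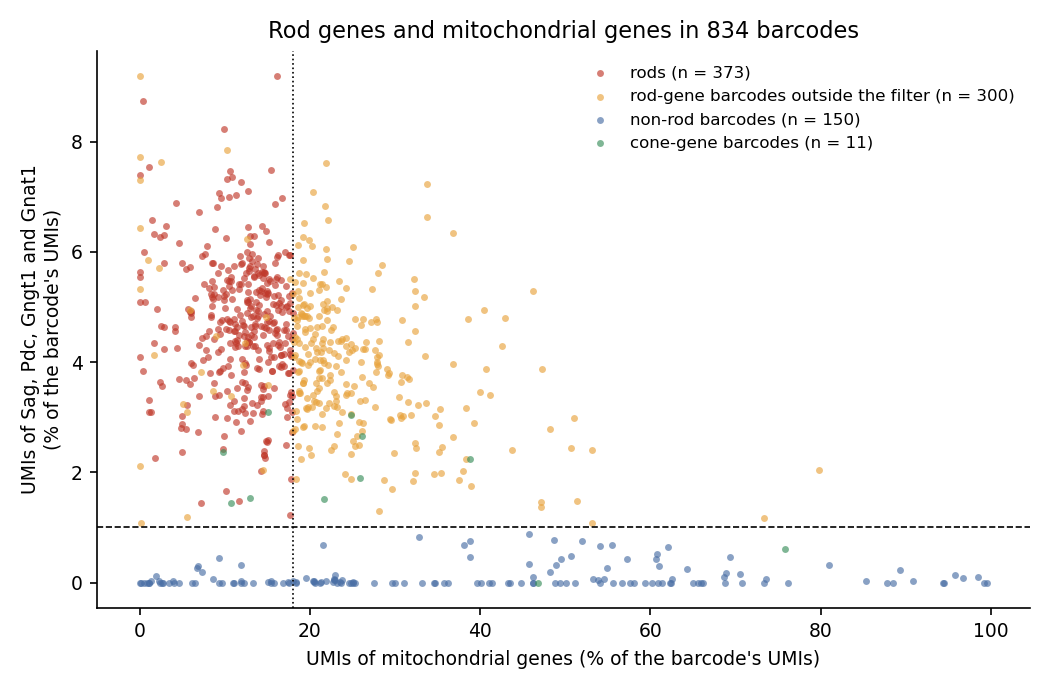
Each point is 1 of 834 barcodes, with the share of its UMIs in mitochondrial genes on the x axis and the share in Sag, Pdc, Gngt1 and Gnat1 on the y axis, both in percent. The 373 rods and the 300 rod-gene barcodes outside the limits form 1 band divided by the 18% line, with medians of 12.6% and 22.3% on the x axis, and the 150 non-rod barcodes lie below 1% on the y axis.

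Nrl and Nr2e3, which the rule did not use, were checked as independent rod markers. Nrl, the leucine zipper factor that commits a precursor to the rod fate, had a UMI in 298 rods (79.9%, interval 75.5% to 83.8%) with a median of 4 UMIs per rod (quartiles 1 and 8). Nr2e3, the nuclear receptor that keeps cone genes silent in rods, had one in 255 rods (68.4%, 63.4% to 73.1%) with a median of 3. In non-rod barcodes, which should lack both, the shares were 3.33% and 2.67% at a median depth of 1528.5 UMIs against 2775 in rods. With every barcode thinned to 1000 UMIs, which kept 354 rods and 104 non-rod barcodes, the shares in rods were 68.1% and 55.4%, and in non-rod barcodes 0.962% and 1.92%. Both genes were seen in 216 rods (57.9%), only Nrl in 82, only Nr2e3 in 39 and neither in 36, and the last group was shallow, with a median of 1358.5 UMIs. Crx, the homeodomain factor shared by rods and cones, had a UMI in 118 rods (31.6%) and in 4.67% of non-rod barcodes. The rod label therefore held on both markers left out of the rule.

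Promoter sequences are shown for 4 of the genes whose values follow, to print the DNA just before the start of genes that mark these cells. Each stretch is the 160 bases before a RefSeq transcript start on GRCm38.p6, read 5′ to 3′ on the strand of the gene, and capitals mark TAATCC or its reverse complement GGATTA, the core of a Crx-type homeodomain site. Sag (chr1:87803520-87803679, plus strand), Guca1a (chr17:47400607-47400766, minus strand) and Unc119 (chr11:78345424-78345583, plus strand, an alternative start inside the gene) are among the leading genes of rods. AI847159 (chr2:129180674-129180833, minus strand) is the antisense transcript with the highest ratio of rods to non-rod barcodes.
Sag: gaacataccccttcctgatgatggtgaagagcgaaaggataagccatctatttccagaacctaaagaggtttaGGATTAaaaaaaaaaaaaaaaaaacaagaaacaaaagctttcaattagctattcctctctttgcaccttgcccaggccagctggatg
Guca1a: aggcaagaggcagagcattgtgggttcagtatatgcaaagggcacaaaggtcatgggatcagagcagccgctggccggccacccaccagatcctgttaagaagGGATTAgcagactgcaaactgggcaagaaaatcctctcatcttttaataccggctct
Unc119: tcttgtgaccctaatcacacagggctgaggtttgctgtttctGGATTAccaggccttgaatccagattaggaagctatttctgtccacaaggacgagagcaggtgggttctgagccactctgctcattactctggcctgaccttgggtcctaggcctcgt
AI847159: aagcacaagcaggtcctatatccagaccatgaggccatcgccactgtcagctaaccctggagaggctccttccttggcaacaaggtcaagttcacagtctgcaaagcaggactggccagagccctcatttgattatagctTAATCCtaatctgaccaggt

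The 250 bases before each start were searched on both strands for TAATCC and for TGCTGA (reverse complement TCAGCA), the core of an Nrl-type site, and in the genes named here no match of one overlapped a match of the other. In the RefSeq table, 7.21% of 27025 genes held TAATCC and 18.02% held TGCTGA. Of the 19 reported leading genes 16 were in the table, and 5 held TAATCC, namely Gngt1 at position -44, Sag at -87, Guca1a at -57, Unc119 at -118 and Cnga1 at -228, counted from the base before the start as -1. Another 5 matches by gene were to TGCTGA, in Sag, Tma7, Unc119, Cst3 and Gpx4. Of the 12 genes with the highest ratio over non-rod barcodes 9 were in the table, of which AI847159 (-20), Nxnl2 (-152) and Wdr17 (-114) held TAATCC. The 160 bases before these starts of Gngt1, Nxnl2 and Wdr17 overlap annotated exons of the same genes and are not printed. For Gngt1 and Wdr17 they lie inside the annotated gene. Among all tested genes, TAATCC stood before 11.7% of 763 matched genes past 2-fold higher in rods, 6.85% of 1446 within 2-fold and 6.98% of 401 past 2-fold lower, and TGCTGA stood before 13.1%, 13.9% and 21.7%. Before Crx itself TAATCC occurred at -94 and -21, and before Nrl and Nr2e3 neither sequence occurred in the window. Such matches describe letters and do not show binding.

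The rod transcriptome was led by the phototransduction machinery. Levels are given as CPM, the UMIs of a gene per 1000000 of the 1057535 summed UMIs of rods, with exact Poisson 95% intervals that cover counting error only. The library counts 1 end of each molecule, so levels were not divided by gene length. Gngt1, the gamma subunit of rod transducin (chr6:3993792-3997436), was highest of the nuclear genes reported here at 18196 CPM (17940 to 18455), with a median of 50 UMIs per rod and quartiles of 37 and 67. Pde6g, the inhibitory subunit of the rod phosphodiesterase (chr11:120447605-120453500), followed at 14839 CPM, and Sag, rod arrestin (chr1:87803680-87845158), at 14070 CPM. Sag was the only gene with a UMI in each of the 373 rods, from 3 to 250 UMIs with a median of 36.

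Calcium sensors and disc proteins came next. Rcvrn, recoverin, which holds back the photopigment kinase in the dark (chr11:67695326-67703333), reached 10749 CPM with a median of 27 UMIs per rod. Prph2 (chr17:46910459-46924933) and Rom1 (chr19:8927391-8929356), the tetraspanins that shape the disc rim, reached 9853 and 9783 CPM with a median of 26 UMIs each. Their intervals of 9665 to 10044 and 9596 to 9973 overlapped, so their order was not resolved. Pdc, phosducin, which binds the beta and gamma subunits of transducin (chr1:150319417-150333906), reached 8674 CPM, Gnb1, the beta subunit (chr4:155491361-155559269), 6110 CPM, and Gnat1, the alpha subunit (chr9:107674474-107679712), 5427 CPM. The 3 subunits of 1 heterotrimer thus stood at 18196, 6110 and 5427 CPM, the gamma subunit furthest up. Guca1a, a guanylate cyclase activator (chr17:47394558-47400584), reached 5678 CPM, Unc119, which carries lipid-anchored transducin (chr11:78343482-78349164), 4911 CPM, and Cnga1, a subunit of the cyclic GMP channel (chr5:72603696-72644275), 4012 CPM.

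Genes with no role in the light response were mixed among them. Tma7, a small protein named for association with the translation machinery (chr9:109074568-109082587), reached 9947 CPM, above Pdc, and was seen in 99.5% of rods. Its level lay inside the intervals of Prph2 and Rom1, so its order against them was not resolved. Hmgn1, a nucleosome-binding protein that loosens chromatin (chr16:96120618-96127729), reached 5962 CPM, and the replacement histone H3f3b (chr11:116021912-116027962) 3489 CPM. Ndufa4, a subunit of the respiratory chain (chr6:11900292-11907497), reached 4951 CPM, Aldoa, the aldolase of glycolysis (chr7:126795234-126800751), 3790 CPM, Gpx4, which removes lipid peroxides (chr10:80047166-80056439), 3598 CPM, and Cst3, the protease inhibitor cystatin C (chr2:148871722-148875692), 4898 CPM. Together the 19 reported nuclear genes of the leading 20 held 14.9% of rod UMIs. Mitochondrial genes stood higher still, with mt-Co3, a subunit of cytochrome oxidase, at 27135 CPM and a UMI in 98.4% of rods.

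**Figure D2:**
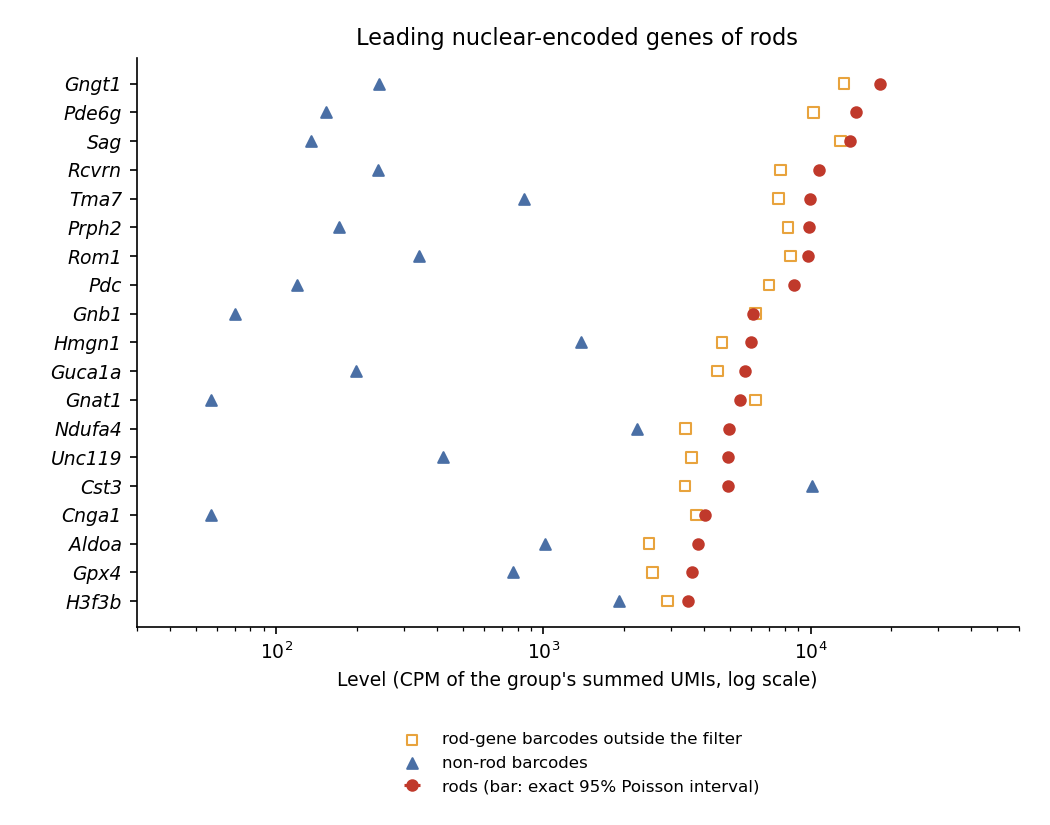
Levels in CPM of summed UMIs (log x axis) of the 19 reported leading nuclear genes (y axis) in rods, in rod-gene barcodes outside the limits and in non-rod barcodes, with exact Poisson 95% intervals on the rods. Rods and the barcodes outside the limits lie close together for each gene. Non-rod barcodes lie far to the left for the phototransduction genes (242 against 18196 CPM for Gngt1, a gene of the rule), and Cst3 alone lies to the right in them.

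Expression was concentrated in few genes. Of 31053 genes in the matrix 10225 had at least 1 UMI in rods, and 20828 had none, which at 3 counts allows up to 2.84 CPM for each. The 10 highest genes held 18.8% of UMIs, the 100 highest 44.2%, 151 genes held the first 50%, and 2681 held 90%. In a single rod far less was seen, since 1346 genes had a UMI in at least 10% of rods, 487 in at least 25%, 198 in at least 50% and 33 in at least 90%, whereas 1745 genes were seen in 1 rod only. Protein-coding genes held 98.2% of UMIs, against 95.8% in non-rod barcodes, and long intergenic RNAs 1.24% against 3.77%. UMIs were not single events in these cells: among genes seen in 2 to 5 rods, 59.0% of 9379 non-zero values were 2 or more. Counting intervals are therefore narrower than the true error, by an amount that was not measured.

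Gene lists by function described how a rod divided its RNA. The 9 genes of phototransduction activation (transducin, phosphodiesterase, channel and exchanger) held 5.36% of rod UMIs, with quartiles of 4.67% and 6.30% over rods and a range of 1.26% to 10.3%. The 12 genes of shut-off and calcium feedback (arrestin, kinase, RGS complex, cyclase and its activators) held 4.36%, and the 12 genes of the outer segment disc and its matrix 3.35%. Of these 33 genes a median of 21 had a UMI in a rod (7 to 31), a median of 19 in a rod-gene barcode outside the limits and a median of 2 in a non-rod barcode. All 9 activation genes were seen together in 89 rods. The ribosomal proteins of the cytosol held 9.88%, the nuclear-encoded respiratory chain 5.14%, glycolysis and lactate transport 1.73%, and the 13 mitochondrial protein genes 11.97%.

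Lists of smaller compartments held under 1.1% each. Heterochromatin proteins and histones held 1.03%, led by H3f3b, H3f3a at 3388 CPM and the histone Hist1h2bc at 1176 CPM. Chaperones held 0.657%, of which Hsp90aa1, a cytosolic heat shock protein, made 40.02%. The ribbon synapse held 0.577%, led by Cplx4, a complexin of photoreceptor terminals, at 1188 CPM, by Stx3, the syntaxin of ribbon synapses, at 867 CPM and by Slc17a7, the vesicular glutamate transporter, at 750 CPM. Photoreceptor transcription factors held 0.565%, with Nrl at 1944, Nr2e3 at 1498, Neurod1 at 744 and Crx at 360 CPM. Proteasome subunits held 0.544%, cilium and ciliary transport genes 0.374%, led by the dynein light chain Dynll1 at 1425 CPM and the small GTPase Arl3 at 1039 CPM, and the visual cycle 0.242%, led by Rbp3, the retinoid carrier of the space between photoreceptors and pigment epithelium, at 1542 CPM. The immediate early and metal response list held 0.059%, and 8 of its 20 members, Fos and Fosb among them, had no UMI in rods.

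**Figure D3:**
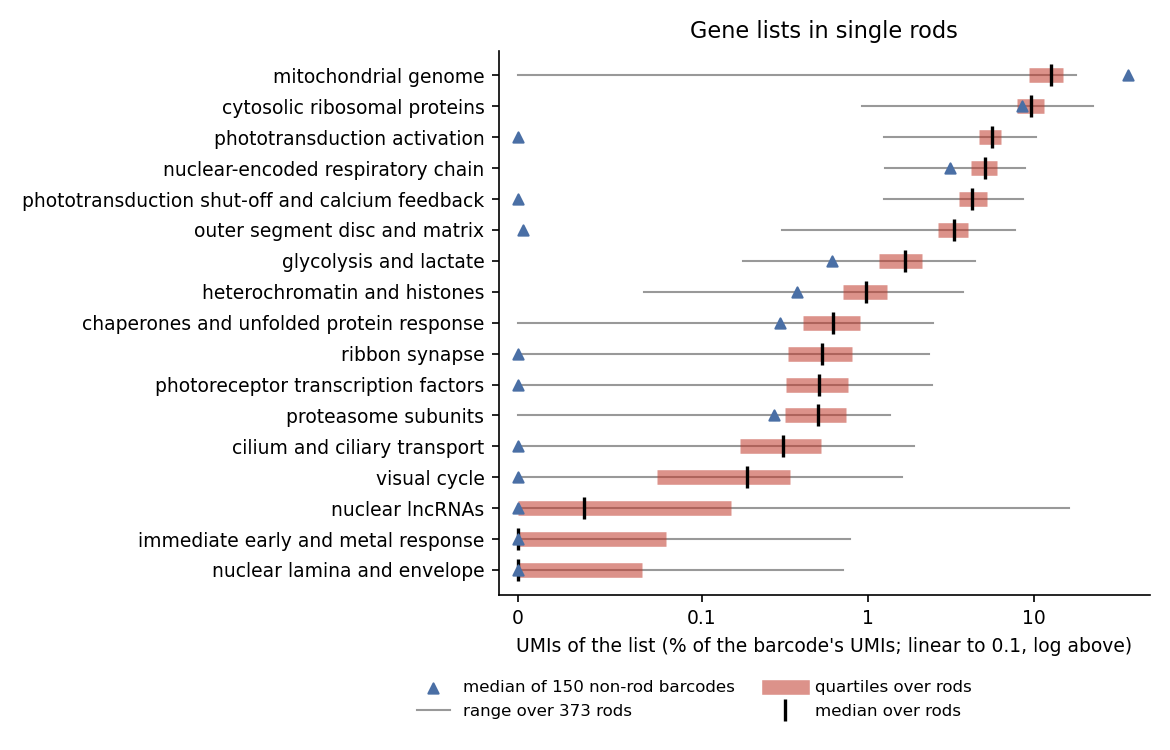
For each gene list (y axis) the share of a barcode's UMIs in percent is plotted on an axis that is linear up to 0.1 and logarithmic above, with the range, quartiles and median over 373 rods and the median of 150 non-rod barcodes. Both phototransduction lists and the outer segment list are high in rods, with medians of 5.58%, 4.25% and 3.31%, and at or near 0 in non-rod barcodes, while ribosomal proteins lie close in both.

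Nuclear envelope genes were sparse. The 12 genes of the lamina and envelope held 578 UMIs (0.055%), and Syne1, a nesprin that links nucleus and cytoskeleton, led with 115 UMIs, followed by the lamina-associated protein Tmpo with 96, emerin (Emd) with 78 and Lbr with 76. Lmna, which encodes lamin A (chr3:88480147-88509956), had 8 UMIs in 2 rods, and Lbr (chr1:181815335-181843046) had its 76 UMIs in 15 rods (4.02%, 2.27% to 6.55%) against 1 of 150 non-rod barcodes. In the 300 rod-gene barcodes outside the limits Lbr had 45 UMIs in 11 barcodes (3.67%, 1.84% to 6.47%), a share close to that in rods. Lmna had 38 UMIs in 3 of those barcodes, up to 35 in 1 barcode. Both Lmna-positive rods carried tag 2. Of the Lbr UMIs, 57 were in 8 of the 24 tag 3 rods (832 CPM, 630.3 to 1078), with 11 in 4 of the 136 tag 2 rods and 8 in 3 of the 200 tag 1 rods (13.4 CPM, 5.78 to 26.4). The Lbr level was thus not spread evenly over the pooled rods, and 1 tag held most of it.

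Markers of other retinal cells were near 0 in rods. Of 12 bipolar markers 8 had no UMI in rods, Trpm1 and Grm6 among them, and the list held 75 UMIs (0.007%) against 10855 (2.00%) in non-rod barcodes. Of 10 microglia markers 9 had none, and the list held 14 UMIs against 3202 in non-rod barcodes. The 5 astrocyte markers had none, and the pigment epithelium, vascular, horizontal, lens, amacrine and ganglion lists had 2, 7, 10, 9, 38 and 39 UMIs, the last pair from Slc6a9 in 5 rods and Rbpms in 12 rods alone. Summed per rod, the bipolar list ranged from 0% to 0.473% and the microglia list from 0% to 0.115%.

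A few marker genes were seen in many rods nonetheless. Clu, clusterin, listed as a Müller glia marker, had a UMI in 150 rods (40.2%, 35.2% to 45.4%) against 18 of the 150 non-rod barcodes, and in 30.8% against 7.69% at 1000 UMIs. It made 67.9% of the 957 Müller UMIs in rods, and Slc1a3, the glutamate transporter of these glia, had none. Gnb3, the transducin beta subunit of cones and bipolar cells, had a UMI in 78 rods (20.9%) against 39 of the 150 non-rod barcodes, and the opsins of cones had 2 UMIs in all. By tag, Gnb3 stood at 484 (429 to 543), 53.3 (32.1 to 83.3) and 1139 (900.2 to 1421) CPM for tags 1, 2 and 3, and these intervals, which cover counting error only, did not overlap, but each tag was 1 sort. Of the erythrocyte list, Hbb-bs and Hbb-bt, the beta globins, had 898 and 130 UMIs, with Hbb-bs in 131 rods (35.1%) against 3.33% of non-rod barcodes. The other 3 erythrocyte markers, both alpha globins included, had none. For Hbb-bs the levels by tag were 1392, 132 and 43.8 CPM for tags 1, 2 and 3, and 832 of its 898 UMIs were in tag 1. Whether globin RNA came from other cells was not tested.

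Messages of rods also appeared at a low level in non-rod barcodes. For 23 rod pathway genes with at least 500 rod UMIs, the CPM in non-rod barcodes was a median of 1.38% of that in rods, from 0% for Rgs9 to 8.60% for Unc119, and 19 of the 23 were under 3%. In the 32 non-rod barcodes inside the quality limits the median was 0.572%. The rule itself kept Sag, Pdc, Gngt1 and Gnat1 low in these barcodes. Sag had a UMI in 19.3% of non-rod barcodes, with no more than 7 UMIs in any, while rods started at 3 UMIs.

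Rods were then compared with non-rod barcodes. The ratio is the log2 of CPM in rods over CPM in the other group with 0.5 UMIs added to both sums, kept where both groups were expected to hold 20 UMIs or more of a gene, and a gene is counted as higher or lower when it was past 2-fold. With 1 library there is no test, and the 95% intervals of ratios are exact conditional ones for counting error. Of 3317 genes 965 were higher in rods (29.1%) and 536 were lower (16.2%). The median of all genes was 0.37, which became 0.06 when mitochondrial genes were left out of the totals, and the counts were then 646 higher and 550 lower of 2913 genes. The share of calls that were higher moved with this scaling from 64.3% to 54.0%. Both groups were defined by rod genes, so ratios of these genes and of genes that vary with them are a description. Expected UMIs were taken from both groups together, so a gene at 0 in 1 group was tested through the other alone and had to be past 2-fold.

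All members of the activation list were higher in rods, 9 of 9 against 29.1% of all genes, with a median log2 ratio of 6.23 and a lowest value of 4.20. Gnat1 and Gngt1 in this list, and Sag and Pdc in the shut-off list, chose the groups, so their ratios were set by the rule. The lists were not recomputed without them. Outside the rule Gnb1 was 6.43, Pde6g 6.59 and Cnga1 6.11, and the rule gene Gnat1 was 6.55 (6.06 to 7.13). Of the shut-off list 11 of 12 were higher, with a median of 5.90 (5.58 with the 2 members at 0 in non-rod barcodes set to a limit of 3 counts), and Gnb5, the beta subunit of the RGS complex that many neurons also express, was the exception at 0.81 (0.52 to 1.11). All 12 members of the outer segment list were higher, with a median of 5.66 and values from 3.54 for Unc119 up to Impg1, which had no UMI in non-rod barcodes. Of 11 tested transcription factors 9 were higher, with Nr2e3 at 6.58 (5.68 to 7.88), Nrl at 5.62 (5.03 to 6.34), Crx at 3.25 and Neurod1 at 1.65, while Otx2, which bipolar cells share, was lower at -1.16 (-1.50 to -0.83). Visual cycle genes were higher in 3 of 4.

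Lists for cell biology shared by many cells moved less. Glycolysis and lactate genes were higher in 11 of 19 with a median of 1.10, or 8 of 19 without mitochondrial genes in the totals, with Pkm, pyruvate kinase, at 2.24 (2.07 to 2.41) and Gapdh at 1.23. The neuronal enolase Eno2 was the single lower member at -1.43 (-1.997 to -0.885). Heterochromatin and histone genes were higher in 6 of 12 tested, median 1.12, with Hist1h2bc at 3.02 and H3f3a at 1.41. Ribbon synapse genes were split, 5 higher and 3 lower of 16 with a median of 0.16 (-0.17 without mitochondrial genes in the totals), from Cplx4 at 4.66 (4.12 to 5.32) to Cplx3, a complexin also used by other ribbon neurons, at -4.78 (-5.34 to -4.30). Cilium genes were higher in 6 of 8, median 1.70. Of 73 respiratory chain genes 11 were higher and 0 lower, median 0.58, of 81 ribosomal protein genes 4 were higher and 1 lower, median 0.28 (-0.05 without mitochondrial genes in the totals), and of 31 proteasome genes 8 were higher and 1 lower, median 0.45. Without mitochondrial genes in the totals 7, 2 and 2 genes of these lists were higher. Among all genes 29.1% were higher, with a median of 0.37, and none of the 3 lists was above that share.

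Mitochondrial genes were lower in rods for 12 of 13 members, with a median of -1.37, and mt-Nd6 was the exception at -0.32 (-0.74 to 0.10). The mitochondrial limit was part of the rule, and against the 32 non-rod barcodes inside the quality limits the median was 0.01. Malat1, a nuclear RNA, stood at 3003 CPM in rods and 24227 CPM in non-rod barcodes, and 3 of 5 nuclear long noncoding RNAs were lower, median -3.01. Cst3 was the sole gene among the 19 reported leading ones with a lower level in rods, 4898 against 10107 CPM, and its ratio of -1.05 (-1.10 to -0.99) became 0.92 when each barcode counted a gene once. A UMI of Cst3 was seen in 90.4% of rods and 46.0% of non-rod barcodes.

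The genes with the highest ratio to non-rod barcodes included several outside the lists. AI847159, an antisense transcript (chr2:129158666-129180667), had 861 UMIs in 199 rods and none in 150 non-rod barcodes, which is at least 147-fold higher against a limit of 3 counts over the group. Arl6, a GTPase of the Bardet-Biedl cilium complex, was at least 98.8-fold higher (578 UMIs in 180 rods), Rgs9, the GTPase activator that turns transducin off, at least 88.9-fold (520 UMIs in 129 rods) and Impg1, a proteoglycan of the matrix around outer segments, at least 66.5-fold (389 UMIs in 114 rods). Nxnl1, the gene of rod-derived cone viability factor, was at least 55.4-fold higher with 324 UMIs in 108 rods, and its relative Nxnl2 had 939 UMIs in 178 rods against 1 (log2 ratio 8.33, 6.43 to 14.2). Gm15706, Tnfsf12, Ankrd33, Pdzph1 and Wdr17 completed those of the 12 highest that are reported here, each with 188 to 378 UMIs in rods and none in non-rod barcodes. Each of them was seen in 63 to 199 rods, so none rested on a single cell. The sources used here do not say how counting treated strand, and whether reads of a partner gene entered the count of AI847159 was not tested.

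The 12 genes with the lowest ratio included 3 of bipolar cells and 3 of microglia. All 9 tested bipolar markers and all 10 microglia markers were lower, beside 16.2% of all genes. Of them 6 and 9 had no UMI in rods and were tested through their non-rod counts alone, so their direction was set by the filter. The medians were -7.37 and -6.62 when genes at 0 were set to a limit of 3 counts. Trpm1, the cation channel of ON bipolar cells, had 951 UMIs in 41 of 150 non-rod barcodes and none in rods, which is at least 618-fold lower in rods. Cabp5, a calcium-binding protein of bipolar cells, was at least 341-fold lower, and Pcp2, an ON bipolar marker, had 8 UMIs in rods against 4430 (log2 ratio -9.99). C1qb, Ctss and Tyrobp, expressed by microglia, had 277 to 497 UMIs in non-rod barcodes and none in rods. Ntng1, Kcnma1, Meg3, Car8, Ccdc136 and Nap1l5 made up the rest, each at 0 in rods and seen in 33 to 40 non-rod barcodes.

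Rods were also compared with the 300 rod-gene barcodes that failed the quality limits. Of 4428 genes 279 were higher in rods (6.3%) and 429 lower (9.69%), with a median of all genes at 0.05. Without mitochondrial genes in the totals 187 were higher and 501 lower of 4242, the share of higher calls moved from 39.4% to 27.2%, and the median was -0.06. Without the rods of tag 1 the higher genes were 150 of 2846 (5.27%), and without the barcode of 85822 UMIs the lower genes were 215 of 3990 (5.39%). Most phototransduction and outer segment genes were within 2-fold. None of the 9 activation genes was past 2-fold, with a median of 0.01 (-0.12 without mitochondrial genes in the totals) and values from -0.26 to 0.53. None of the 12 outer segment genes was, with a median of 0.24, and of the 12 shut-off genes Gucy2f, a guanylate cyclase, was lower at -1.52 (-1.96 to -1.10). Of 11 photoreceptor transcription factors 10 were below 0, with a median of -0.31, and Otx2 was past 2-fold lower at -1.02 (-1.33 to -0.71). For all genes the shares on either side of 0 were not computed, and their median was 0.05. Nrl was the member above 0 at 0.29 (0.19 to 0.39), and Nr2e3 was -0.03 (-0.13 to 0.08).

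Genes of respiration and translation differed by less than 2-fold in most cases. The 13 mitochondrial genes were all below 0, with a median of -0.69 and none past 2-fold, a direction that the mitochondrial limit sets. Of 73 respiratory chain genes 69 were above 0 with a median of 0.46, and of 81 ribosomal protein genes 78 were above 0 with a median of 0.38, against 0.05 for all genes. Only 1 and 2 of them were past 2-fold, beside 6.3% of all genes. Without mitochondrial genes in the totals 63 and 75 were above 0, with medians of 0.33 and 0.25 against -0.06 for all genes, and none was past 2-fold. Among rods alone, the median share of respiratory chain genes was 5.47%, 4.41% and 6.24% in tags 1, 2 and 3. For ribosomal protein genes it was 9.88%, 9.28% and 10.89%. Tags also differed in the share of their barcodes that were rods (75.8%, 43.0% and 58.5%). Whether this made part of the ratios was not tested. Of 4 nuclear long noncoding RNAs 3 were lower, beside 9.69% of all genes, with a median of -2.15. But this median was 0.46 when CPM was averaged over barcodes, 0.56 when they were thinned and 0.17 with a mitochondrial limit of 10%. Malat1 was -1.86 (-1.92 to -1.80), but -1.25 without the 1 barcode with the highest Malat1 count in the compared group and -4.27 without the rods of tag 1. Ribbon synapse genes were lower in 5 of 18, beside 9.69% of all genes, or 5.39% of all genes without the barcode of 85822 UMIs. How many of the 18 were lower without that barcode was not computed. Among the 5 was Pclo, the scaffold protein piccolo, at 22 against 89 UMIs (-2.30, or 0.13 when CPM was averaged over barcodes). The globins Hbb-bs and Hbb-bt were both higher, at 1.66 and 1.78, but 832 of 898 Hbb-bs UMIs were in tag 1. These genes are near-identical copies, so the division of reads between them is uncertain.

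Single genes at the ends of this comparison rested on few molecules. Zfp451, a zinc finger protein, had 57 UMIs in 12 rods against 1 UMI (4.95, 2.98 to 10.8), and Cebpd, a transcription factor induced by stress, 87 UMIs in 22 rods against 4 (3.97, 2.72 to 6.04). Tmem141, Cdc40, Otud6b, Aifm1, Eci2, Adprm and Gm49024 had 41 to 54 UMIs in 10 to 19 rods against 3 to 5, and with a mitochondrial limit of 10% the ratios of Tmem141 and Aifm1 were -1.32 and -0.58. At the low end Steap2 had 4 UMIs in 2 rods against 48 (-3.74), Lman2 13 against 69, Sf3a1 9 against 48 and Pde12 8 against 37. When a barcode counted each gene at most once, 11 of 1616 tested genes were higher (0.681%) and 2 lower (0.124%). When every barcode was thinned to 1000 UMIs, 121 of 1628 were higher (7.43%) and 35 lower (2.15%). Fewer genes were tested in both cases, and the share of lower genes fell in both.

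**Figure D4:**
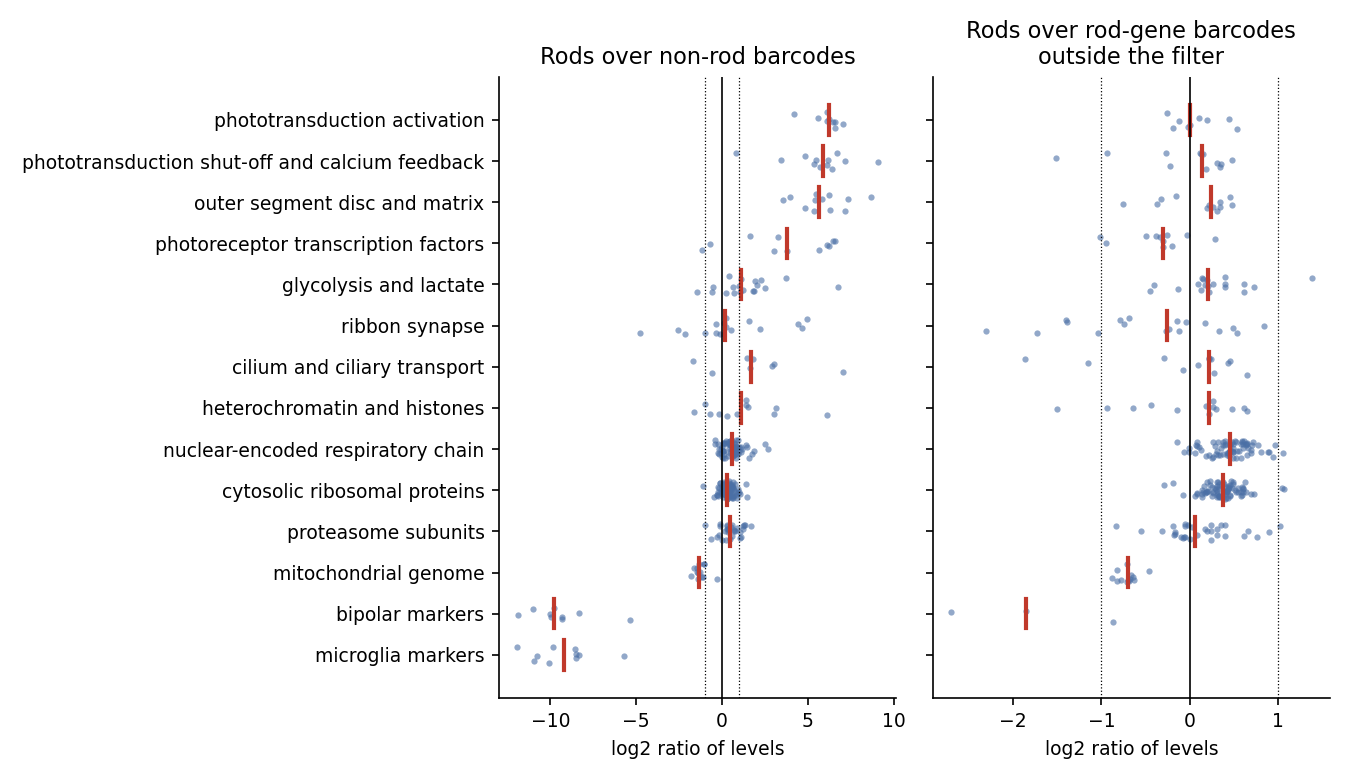
Points are the log2 ratios of the tested members of each gene list (y axis), red bars are list medians where over 2 genes were tested, and dotted lines mark 2-fold. Against non-rod barcodes (left) the phototransduction and outer segment lists lie near 6 and the bipolar and microglia lists below -5 for most members, whereas against rod-gene barcodes outside the limits (right) the rod lists lie near 0 and mitochondrial genes near -0.69.

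Against all 461 other barcodes at once, 369 of 5204 genes were higher in rods (7.09%) and 837 lower (16.1%), with a median of 0.07. Leaving mitochondrial genes out of the totals gave 237 and 1117 of 5456 genes, a median of -0.14 and a share of higher calls of 17.5% in place of 30.6%. Most of the others were rod-gene barcodes, and most rod genes were within 2-fold in this comparison. The median was 0.74 for activation, 0.86 for shut-off and 0.94 for the outer segment. Past 2-fold were 2 of 9, 3 of 12 and 5 of 12 members, with Gngt1, a gene of the rule, at 1.15 and Pde6g at 1.24. Without mitochondrial genes in the totals 1, 0 and 0 of them were past 2-fold. Gm16104, an antisense transcript, ranked first with 72 UMIs in 17 rods against 7 (3.71, 2.68 to 5.16). Eif1ad, an initiation factor-like protein, had 141 UMIs in 42 rods against 32 (2.56), and Hbb-bt 130 against 34 (2.35), which became -0.08 without the rods of tag 1. Without tag 1 fewer genes were tested, and 211 of 2934 were higher (7.19%) and 451 lower (15.4%).

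The spread of genes among rods at equal depth was described next. UMIs were not single events here, so how much of this spread came from differences between rods was not tested. At 1000 UMIs per barcode, 354 rods showed a median of 392.5 genes against 323 in 255 rod-gene barcodes outside the limits and 247 in 104 non-rod barcodes, with 19, 45 and 46 shallower barcodes left out. Over 1013 genes with at least 50 thinned UMIs, the variance over the mean among rods had a median of 2.23 (quartiles 1.96 and 2.54), and it was over 2 for 718 genes (70.9%), where independent single molecules would give 1. The leading rod genes lay above this median, with Gnat1 at 2.52, Gngt1 at 3.02 and Pdc at 3.06. Prph2 at 3.28, Pde6g at 3.57, Guca1a at 3.61 and Sag at 3.90 were over the 95th percentile of 3.23. Of leading genes with no role in the light response, Aldoa was also over it at 3.24, and Cst3 was just under it at 3.21. Whether the variance over the mean rose with the level of a gene was not tested. Malat1 stood far apart at 82.8, since 59 rods (15.8%) held all 3176 of its UMIs, up to 580 in 1 rod, and 2916 were in 23 rods of tag 1. Gm42418 followed at 8.70, Hbb-bs at 8.34, Tctex1d2 at 6.11, mt-Co3 at 5.97, mt-Cytb at 5.30, mt-Atp6 at 5.03 and Gabarap at 4.73. Gm42418 overlaps a ribosomal RNA repeat in the mouse genome, so its counts are uncertain.

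**Figure D5:**
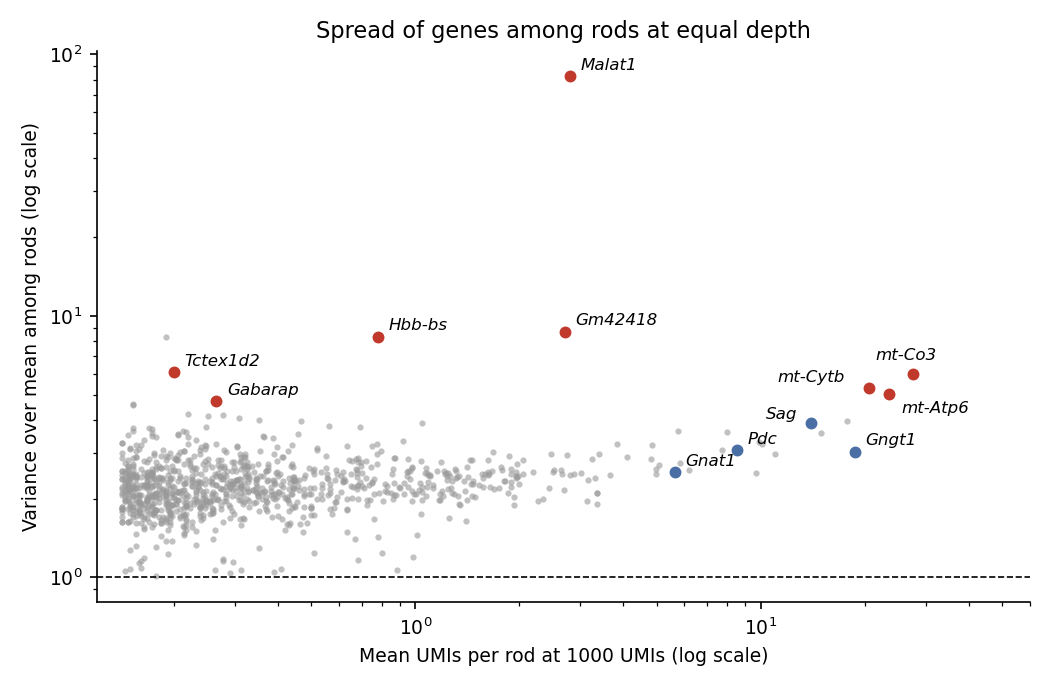
Each point is 1 of 1013 genes, with its mean UMIs per rod at 1000 UMIs on the log x axis and its variance over mean among 354 rods on the log y axis, where the dashed line marks 1. Most genes lie in a band around 2.23, the 8 named genes with the largest spread are in red with Malat1 at 82.8 on top, and Sag, Gngt1, Pdc and Gnat1 are in blue.

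The shares of the rod lists were alike at all depths. In 4 groups of rods ordered by UMIs, from 512 to 2130 up to 3403 to 12461, the median share of activation genes was 5.65%, 5.70%, 5.60% and 5.36%, and that of outer segment genes 3.07%, 3.31%, 3.32% and 3.32%. The share of respiratory chain genes was 4.59% in the shallowest group and 5.07% in the deepest. Across the 373 cells of 1 library the shares of the activation and outer segment lists had a Spearman correlation of 0.32, activation and shut-off 0.30, and respiratory chain and ribosomal proteins 0.38, where both lists share a total and the points are not independent samples. The mitochondrial share had a correlation of -0.06 with activation, or 0.13 when mitochondrial genes were left out of the total of the activation share.

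The pooled rods came unevenly from the tags. Of 264 barcodes called to tag 1, 200 were rods (75.8%), of 316 called to tag 2, 136 (43.0%), and of 41 called to tag 3, 24 (58.5%), and 360 of the 373 rods had such a call. These totals of called barcodes equal, in this order, the numbers of rods that the study gives as passing its limits for the control, lamin A and Lbr sorts. By the limits applied here only part of these barcodes were rods. Most Lbr UMIs of rods were in tag 3, and both Lmna-positive rods carried tag 2. No label or file names the condition of a tag, so the tags are kept by number. Rods of the 3 tags had medians of 2925, 2645.5 and 2649.5 UMIs and 11.01%, 14.38% and 11.44% mitochondrial UMIs. Their rod-gene shares were 4.64%, 4.76% and 4.56%. Median shares of the activation list were 5.42%, 5.80% and 4.54%, and Sag stood at 13993, 14550 and 12964 CPM. The tag 3 values rest on 24 rods. Another 9 rods carried deposited doublet calls, and Scrublet called 5 others.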

How the data were processed

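Sorted retinal cells of 3 conditions, each marked with a MULTI-seq tag, were sequenced by the authors as 1 pooled 10x Genomics run, and the 2 deposited samples are its expression and tag libraries. The deposited expression values are raw UMI counts per gene and barcode from the Cell Ranger pipeline of the authors (6.1.2 in the submitters' processing notes, 3.1.0 in the matrix header) on mm10. Scanpy 1.9.1 is also named in those notes. The deposited tag matrix holds counts per tag and barcode, and the deposited tag calls give the authors' tag with a probability as a fraction between 0 and 1, which was not used. A sample was 1 library, so the tests across samples that counts allow could not be made.

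Here the barcodes were filtered and grouped by the limits given in the report, and UMIs were summed per gene and group (Python 3.11.15, numpy 2.4.6, scipy 1.17.1, pandas 2.3.3, matplotlib 3.10.9). Shares have exact Clopper-Pearson, levels exact Poisson and ratios exact conditional 95% intervals, which cover counting error only, since barcodes are not replicates and animals cannot be separated. A count of 0 was given a limit of 3 counts. Ratios had 0.5 UMIs added to both sums, and genes with fewer than 20 expected UMIs in either group were left out. Thinning drew 1000 UMIs per barcode. Doublets were kept, as the rule has no step for them. Scrublet in scanpy 1.11.5, at an expected rate of 6%, called 5 of 409 barcodes, the deposited tags mark 22, and leaving out the 14 rods so called is among the alternatives. The script was tested on simulated data before use. The simulated counts were independent Poisson draws, so the test did not cover the extra spread of UMIs that were not single events.

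The members, gene lists and tests were chosen with earlier results of these data known. Genes named are those of the rule with Nrl, Nr2e3, Lmna and Lbr, the 20 highest nuclear genes, the 4 members of each list and 2 of each marker list with most rod UMIs, members at 0, the 12 highest and lowest ratios of each comparison (seen in at least 10 barcodes) and the 8 largest variances over the mean, both without genes that had over 30% of their UMIs in 1 barcode. Crx, Gnb5, Otx2, Eno2, Cplx3, Gucy2f and mt-Nd6 were named after their values were seen, and so were the members given for motif matches. A few genes that this rule names, 1 of the leading 20 among them, are not reported here, and they stayed in all totals. Coordinates and gene types are from GENCODE M21 on the same build, which held 31011 of 31053 genes (99.9%), and promoter sequences are from RefSeq on GRCm38.p6. The listed genes Septin4 and Rian had no entry in the matrix. Alternatives were other limits, scalings, minimum counts, left-out tags and barcodes, and 1 count per gene and barcode. Leaving out the largest barcode, keeping non-rod barcodes inside the limits only, thinning, and leaving 1 barcode or tag out of the ratios of Malat1 and Lbr were chosen after seeing the data.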

Additional observations from a re-analysis of the deposited data

How the results depend on the processing

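Of 126 recomputed counts and levels that answer a comparison, 77 stayed within 1.5 times the value reported and 49 moved further. The 373 rods became 109 at a mitochondrial limit of 10%, and the 151 genes that hold 50% of UMIs became 698 with 1 count per gene and barcode. For rods over all other barcodes (369 higher, 837 lower) the counts were 106 and 134 at the 10% limit, 50 and 82 with 1 count per gene and barcode, 716 and 497 with CPM averaged over barcodes, 211 and 451 without tag 1 rods, 609 and 1577 at 10 expected UMIs, 158 and 277 at 50, 1636 and 5897 with every gene, and 235 and 103 after thinning, and without mitochondrial genes 237 were higher. For rods over non-rod barcodes (965 and 536) they were 232 and 15 with 1 count per gene and barcode, 1477 and 1102 at 10 expected UMIs, 439 and 178 at 50, 3158 and 5114 with every gene, 378 and 116 over the 32 non-rod barcodes inside the limits, and 300 and 47 after thinning, and 536 were higher at the 10% limit. For rods over rod-gene barcodes outside the limits (279 and 429) they were 87 and 68 at the 10% limit, 11 and 2 with 1 count per gene and barcode, 561 and 220 with CPM averaged, 519 and 891 at 10 expected UMIs, 85 and 93 at 50, 1990 and 3544 with every gene, and 121 and 35 after thinning. There 150 were higher without tag 1 rods, and 238 and 215 were lower without the top barcode of each gene and without the largest barcode. The number of genes tested moved too, down to 2934, 2461 and 1938 of 5204 over all others without tag 1 rods, with 1 count per gene and barcode and at the 10% limit, and to 1156 of 3317 over non-rod barcodes inside the limits. How much of each change this made was not tested.

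Of single values past 2-fold, 9 changed sign. Hbb-bt over all others was -0.0799 without tag 1 rods. Over non-rod barcodes, Cst3 was 0.92 with 1 count per gene and barcode and the mitochondrial median was 0.0145 inside the limits. Over rod-gene barcodes outside the limits, the nuclear long noncoding RNA median was 0.17 at the 10% limit, 0.46 with CPM averaged and 0.56 after thinning, Tmem141 and Aifm1 were -1.32 and -0.58 at the 10% limit, and Pclo was 0.13 with CPM averaged. Among values within 2-fold, leaving mitochondrial genes out of the totals turned the medians of all genes over all others (0.07 to -0.14) and over rod-gene barcodes outside the limits (0.05 to -0.06), and list medians given in the report. Of the recomputed ratios of named genes past 2-fold, 539 of 540 over all others, 797 of 798 over non-rod barcodes and 429 of 432 over rod-gene barcodes outside the limits kept their direction. Whatever their sign, 41, 8 and 14 fell within 2-fold. No paired analysis was possible because the series is 1 pooled library with no replicate numbers. Single rods were seen at limited depth, with a median of 579 genes per rod.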

Other observations

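The lamina and the early response genes also had ratios that the report does not give, as a description with no test. Over non-rod barcodes 4 of 6 tested lamina and envelope genes were past 2-fold higher in rods (29.1% of all genes), with a median log2 ratio of 2.91. Of the 6, 1 had no UMI in non-rod barcodes and was tested through its rod counts alone, so its direction was set by the filter. The summed UMIs of the list had a log2 ratio of 0.86. Over rod-gene barcodes outside the limits the median of the list was 0.12. Tmpo, the gene of lamina-associated polypeptides, was 2.72 (1.72 to 4.17), while Syne1 was -0.25 (-0.69 to 0.20) and Emd 0.03 (-0.54 to 0.63). Lbr was 4.71 (2.76 to 10.6) on 76 UMIs against 1 and 2.83 (0.73 to 8.76) without the rods of tag 3. A UMI of Lbr was seen in 4.02% of rods and in 3.67% of rod-gene barcodes outside the limits. Of 9 tested immediate early and metal response genes 5 were past 2-fold lower in rods (16.2% of all genes) and 2 higher, with a median of -1.77. Ier3, an early response gene, had 312 UMIs in 89 rods against 1 in non-rod barcodes (6.74, 4.83 to 12.6), and its ratio over rod-gene barcodes outside the limits was -0.03 (-0.28 to 0.21). Ier2 and Gadd45b had 66 and 42 UMIs in 15 and 9 rods.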
